A study of Mus musculus with 9 samples.

Results

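The EGR, DUSP, IER and NR4A early genes were followed in granulocyte-macrophage progenitors (GMPs) that differ in the microRNA-processing gene Dicer1. The members are 10 genes chosen by name, with earlier results of these data known: Egr1, Egr2, Egr3, Nr4a1, Ier2, Ier3, Dusp1, Dusp2, Dusp6 and Zfp36. Shares over all genes beside their counts are therefore a description and no test. They were taken as every probe set of the deposited array table that the platform annotation assigns to 1 of these symbols alone, which gave 12 of 45101 probe sets. Egr2 and Egr3 had 2 probe sets each and the other genes 1. With the brightest probe set standing for each gene, all 10 members were among the 12347 genes that passed the filter on dim signals, out of 18193 genes in all.

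The 9 arrays held 3 Dicer null, 3 Dicer heterozygous (het) and 3 Dicer wild-type (wt) samples of sorted EYFP-positive GMPs from bone marrow. Donor cells of every group carried Cebpa-Cre and the R26-LSL-Eyfp reporter, and the labels give deletion of Dicer1 as complete in null, heterozygous in het and none in wt, with the same mixed description of wt/fl and fl/fl donors on every sample. The donors were fetal livers of embryonic day 13.5, and the recipients were C57BL/6 mice irradiated with 8.5 Gy at 6 to 8 weeks of age and analysed 6 to 10 weeks after transplantation. Cre is driven by the myeloid gene Cebpa, so deletion is limited to donor cells in which that promoter has been active, and EYFP marks them. Cells of 1 fetal liver usually went to more than 1 recipient and no label says which samples share a donor, so the p-values speak only for the variation among these 9 samples, some of it perhaps technical.

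Early genes are transcribed within minutes of a growth factor, cytokine or stress signal, without new protein synthesis, mostly through serum response factor with its ternary complex partners and through CREB downstream of MAP kinases. Some of their products are transcription factors that carry the signal on, such as EGR1 and the orphan nuclear receptor NR4A1. Others end the response: DUSP phosphatases remove phosphate from MAP kinases, and ZFP36 (tristetraprolin) speeds decay of mRNAs with AU-rich elements. In mouse myeloid progenitors EGR1 and EGR2, with their NAB partners, are known to favour macrophage over neutrophil genes.

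Promoters of 4 members are shown because these genes are all known as early response genes and gave different patterns below: Dusp1 and Zfp36 fell in both genotypes that lack Dicer1 copies, Dusp6 fell in steps, and Egr2 passed no test. The sequences are RefSeq promoters of build GRCm38.p6, 250 bases before to 50 after the gene start, read 5′ to 3′ on the gene's strand. Capitals mark a cyclic AMP response element (CRE, TGACGTCA) or a CArG box, the core of the serum response element.
Dusp1, chr17:26508423-26508722, minus strand: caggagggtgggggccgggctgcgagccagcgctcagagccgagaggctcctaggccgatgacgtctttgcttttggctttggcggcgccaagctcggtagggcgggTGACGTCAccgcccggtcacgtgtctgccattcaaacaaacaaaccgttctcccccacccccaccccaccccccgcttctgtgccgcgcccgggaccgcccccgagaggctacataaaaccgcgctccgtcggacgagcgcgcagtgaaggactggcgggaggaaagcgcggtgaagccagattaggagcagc
Zfp36, chr7:28379179-28379478, minus strand: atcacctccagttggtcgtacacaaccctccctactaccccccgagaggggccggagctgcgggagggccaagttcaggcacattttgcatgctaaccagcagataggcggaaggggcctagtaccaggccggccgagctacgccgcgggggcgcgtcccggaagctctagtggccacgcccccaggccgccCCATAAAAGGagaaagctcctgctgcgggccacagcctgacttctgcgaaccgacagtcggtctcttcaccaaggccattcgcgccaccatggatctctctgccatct
Dusp6, chr10:99262981-99263280, plus strand: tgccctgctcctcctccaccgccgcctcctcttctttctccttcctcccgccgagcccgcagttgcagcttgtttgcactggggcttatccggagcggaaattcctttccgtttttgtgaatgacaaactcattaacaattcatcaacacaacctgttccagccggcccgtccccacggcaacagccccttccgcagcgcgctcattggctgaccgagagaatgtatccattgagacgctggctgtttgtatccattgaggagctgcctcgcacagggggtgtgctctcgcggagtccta
Egr2, chr10:67537619-67537918, plus strand: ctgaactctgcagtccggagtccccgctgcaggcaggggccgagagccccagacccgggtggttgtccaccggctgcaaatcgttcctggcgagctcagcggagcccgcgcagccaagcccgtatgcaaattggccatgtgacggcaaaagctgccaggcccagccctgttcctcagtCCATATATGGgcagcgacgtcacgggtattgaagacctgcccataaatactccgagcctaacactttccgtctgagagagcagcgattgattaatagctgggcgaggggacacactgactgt

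In Dusp1 the CRE begins 143 bases before the gene start. In Zfp36 the CArG box begins 58 bases before it, and in the Egr2 window shown 72 bases before. Promoters were matched for 7 members (Egr2, Ier3, Dusp1, Dusp2, Dusp6, Nr4a1 and Zfp36), Egr2 having 5 windows. Among 32851 RefSeq promoters outside chromosome 18, read on both strands, a CArG box stood in 1.63%, TGACGTCA in 1.79%, the AP-1 site TGANTCA in 7.81% and the EGR site GCGTGGGCG in 0.612%. Of the 7 members, Egr2 and Zfp36 held a CArG box, Dusp1 held TGACGTCA, and 0 held the AP-1 or the EGR site in these windows. A match is a string of letters and no evidence of binding.

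Signals are MAS5 intensities in arbitrary units, each array scaled to a trimmed mean of 100 before deposit, and array medians ran from 12.4 to 16.1. Differences are given as log2(signal + 12) of the first group named minus the second, with the standard error (SE) of a limma fit over all genes, and a call is a Benjamini-Hochberg adjusted p under 0.05. On its brighter probe set the targeted gene, Dicer1, averaged 105 ± 9.46 in null, 185 ± 16.1 in het and 232 ± 11.1 in wt cells (SD, n = 3 each). Its het against wt difference there was -0.31, which was not called (adjusted p = 0.217). A dimmer Dicer1 probe set averaged 51.5, 72.1 and 126 in null, het and wt cells, and there het was lower than wt by a called difference of -0.72 (adjusted p = 0.0101 in the fit over probe sets). Of the 12 GMP markers tested, Mpo, Elane, Prtn3 and Ctsg were called in no comparison. They read 7201 to 8989, 721 to 1078, 3811 to 5514 and 7547 to 9107 over the 9 arrays. The GMP markers that were called are given below. The array wt replicate 2 stood apart: its Xist signal was 2610 and its Eif2s3y signal 1.13, against 16.4 to 30.2 and 622 to 859 on the other 8 arrays. Counts of members called are also given without it, as are values for some members and some other genes.

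In null against wt cells 6 of the 10 early genes fell and 0 rose: Dusp1, Egr1, Dusp6, Ier2, Zfp36 and Dusp2. Among all 12347 genes tested, 8.09% were called lower and 7.6% higher. The median difference was -0.84 over the 10 members and -0.04 over all genes tested. In 5 of these genes the fall was at least 2-fold (Dusp2 excepted), which 0.551% of all genes reached. The 3 null arrays all lay below the 3 wt arrays in 8 members, where 19% of all genes had such lower, separate values. Without wt replicate 2 the count of falls was 5, Dusp2 no longer passing.

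The het against wt count was again 6 of 10 lower and 0 higher, but with Ier3 in place of Ier2. Of all genes 1.39% were called in this comparison, 0.697% lower and 0.697% higher. The median was -0.59 over the members and -0.01 over all genes. Arrays did not overlap, with het lower, in 7 members and in 9.78% of all genes. The count fell to 3 (Egr1, Dusp1 and Zfp36) without wt replicate 2, without het replicate 2 or without het replicate 3, since the falls of Ier3, Dusp2 and Dusp6 lay close to the threshold. Both comparisons use the same 3 wt arrays, so they are not independent.

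In null against het cells, which share no array, 2 of 10 members were called lower, Dusp6 and Ier2, and 0 higher, against 7.49% of all genes called lower and 6.84% called higher. The median was -0.08 over the members and -0.03 over all genes. The same 2 members were the ones whose null arrays all lay below the het arrays, as did 18% of all genes, and Dusp2 was the 1 member with all null arrays above the het arrays, as in 14.7% of all genes.

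**Figure D1:**
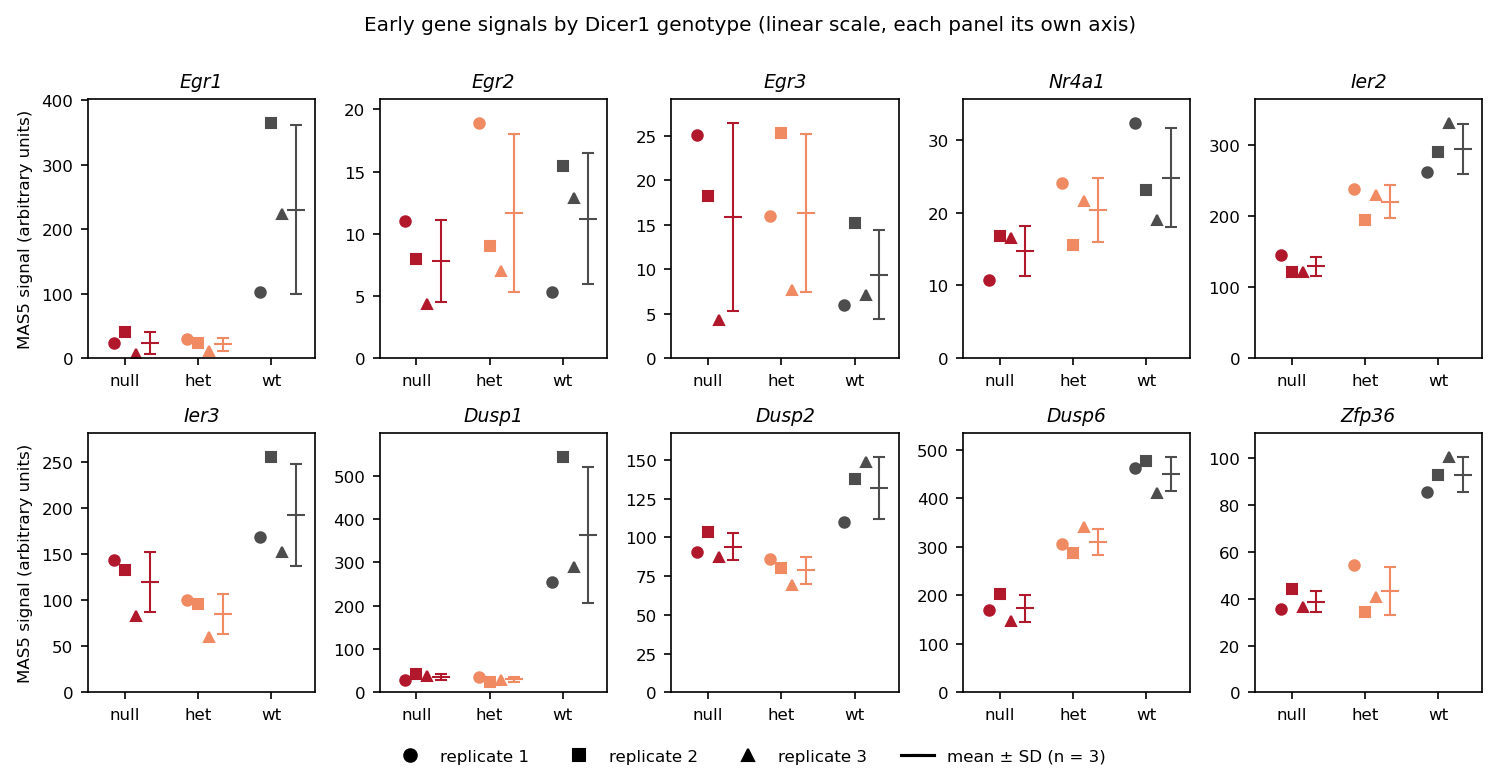
MAS5 signal (linear, arbitrary units, each panel with its own axis from 0) of the 10 early genes on each array, by genotype, with the mean and SD of 3 arrays beside the points. Egr1 and Dusp1 are low on all 6 null and het arrays, Dusp6 and Ier2 form 3 steps, and Egr2 and Egr3 overlap between genotypes.

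Egr1, a zinc finger transcription factor induced by nearly every mitogen, read 23.6, 40.6 and 7.28 on the null arrays, 30.4, 23.0 and 11.2 on the het arrays, and 102, 365 and 224 on the wt arrays. Every null and het array lay below every wt array, and the wt arrays themselves differed more than 3-fold, with wt replicate 2 highest. The mean was 23.8 ± 16.7 in null, 21.5 ± 9.69 in het and 230 ± 132 in wt cells (SD, n = 3 each), so that the null mean was 0.103 and the het mean 0.0935 of the wt mean. On null replicate 3 and het replicate 3 the signal lay below the median of the array, where its standing against background is unknown, so these ratios are approximate. Egr1 fell by 2.71 in null against wt (SE 0.40, limma adjusted p = 0.000461) and by 2.74 in het against wt (adjusted p = 0.0017), the fourth largest fall of all genes tested in both. Null and het cells did not differ detectably (0.02, 95% interval -0.82 to 0.87). Its size depended on the value added before the logarithm: with 1 the differences were -3.32 in null and -3.28 in het, and with 32 they were -2.14 and -2.17. Without wt replicate 2 the falls were 2.31 and 2.33 (adjusted p = 0.00141 and 0.00515).

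Egr2 and Egr3, relatives of Egr1 that bind the same DNA site, were dim. The brighter Egr2 probe set read 11.0, 8.01 and 4.39 in null, 18.9, 9.04 and 7.03 in het, and 5.32, 15.4 and 12.9 in wt cells, below the median of the array on all but 2 arrays. Its groups overlapped, and its difference was -0.22 in null against wt (95% interval -0.77 to 0.34, adjusted p = 0.644). The brighter Egr3 probe set read 25.1, 18.2 and 4.29 in null, 16.0, 25.3 and 7.62 in het, and 5.93, 15.2 and 7.11 in wt cells. These groups overlapped too, and the differences were 0.32 in null and 0.38 in het against wt (adjusted p = 0.555 and 0.69). The other probe sets averaged 2.57 for Egr2 and 2.21 for Egr3 over the 9 arrays and were not tested. Detection calls were not used here, so whether these genes stood above background is unknown.

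Nr4a1 (Nur77), an orphan nuclear receptor of activated lymphoid and myeloid cells, was also dim, at 10.8, 16.8 and 16.6 in null, 24.1, 15.5 and 21.6 in het, and 32.4, 23.2 and 19.0 in wt cells. The 3 null arrays lay below the 3 wt arrays while het arrays overlapped both. The difference in null against wt was -0.46 (SE 0.20, 95% interval -0.89 to -0.02), which did not pass over all genes (adjusted p = 0.151). For het against wt the value was -0.18 (adjusted p = 0.791).

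Ier2, a small nuclear early response protein, read 145, 121 and 122 in null, 238, 194 and 229 in het, and 262, 291 and 332 in wt cells. The 3 genotypes did not overlap and stood in the order of their intact Dicer1 copies. Its means were 130 ± 13.5, 221 ± 23.5 and 295 ± 35.2 in null, het and wt cells (SD, n = 3 each). Ier2 fell by 1.11 in null against wt (SE 0.12, limma adjusted p = 3.52e-05) and by 0.72 in null against het (adjusted p = 0.00141). Het against wt gave -0.40, which did not pass (adjusted p = 0.137).

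Ier3 (IEX-1), an early gene linked to cell survival under stress, ran in another order. Its signals were 143, 133 and 82.4 in null, 99.9, 96.1 and 60.4 in het, and 168, 255 and 153 in wt cells. Het arrays were lowest, and null arrays overlapped them and lay below wt. Ier3 fell by 1.06 in het against wt (SE 0.22, adjusted p = 0.0262). The difference of -0.63 in null against wt did not pass (adjusted p = 0.0668), nor did that of 0.43 in null against het (95% interval -0.05 to 0.90, adjusted p = 0.229). The het call did not hold without any one of the 3 het arrays, without wt replicate 1 or without wt replicate 2 (adjusted p = 0.0506 to 0.132).

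Dusp1 (MKP-1), a nuclear phosphatase of p38, JNK and ERK, had the largest change of the 10 members. It read 27.5, 42.2 and 37.0 in null, 35.5, 24.8 and 29.5 in het, and 255, 543 and 290 in wt cells. All null and het arrays were far below the wt arrays, and null and het arrays overlapped. The means were 35.6 ± 7.44, 29.9 ± 5.40 and 363 ± 157 in null, het and wt cells (SD, n = 3 each), the null mean being 0.0982 and the het mean 0.0826 of the wt mean. Dusp1 fell by 2.91 in null against wt (SE 0.23, adjusted p = 2.44e-06) and by 3.09 in het against wt (adjusted p = 4.75e-06), the third largest fall of all genes in both. Between null and het cells the difference was 0.18 (95% interval -0.31 to 0.66, adjusted p = 0.675). Without wt replicate 2, the highest array, the falls were 2.59 and 2.77 (adjusted p = 8.69e-07 and 8.08e-07).

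Dusp2 (PAC-1), a nuclear MAP kinase phosphatase of blood cells, differed less. It read 90.8, 104 and 87.4 in null, 86.3, 80.5 and 69.3 in het, and 110, 138 and 149 in wt cells. Both null and het arrays lay below the wt arrays, and all het arrays lay below the null arrays. Dusp2 fell by 0.44 in null against wt (SE 0.13, adjusted p = 0.0401) and by 0.66 in het against wt (adjusted p = 0.0218), while null against het gave 0.22 (95% interval -0.06 to 0.51, adjusted p = 0.304). The null call was lost under 10 of 20 alternatives and the het call under 6 of 20, and in a fit over all probe sets null against wt gave an adjusted p of 0.0538.

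Dusp6 (MKP-3), a cytoplasmic phosphatase specific to ERK that is itself induced by ERK, read 170, 202 and 148 in null, 305, 287 and 340 in het, and 463, 477 and 411 in wt cells. The 3 genotypes formed separate steps, as for Ier2. Means were 173 ± 27.6, 310 ± 27.2 and 450 ± 34.9 in null, het and wt cells (SD, n = 3 each). Dusp6 fell by 1.33 in null against wt (SE 0.12, adjusted p = 5.26e-06), by 0.81 in null against het (adjusted p = 0.000514) and by 0.52 in het against wt (adjusted p = 0.0406). The last call was lost under 10 of 20 alternatives, including without each het or each wt array in turn (adjusted p = 0.0507 to 0.18), while the other calls held in all 20.

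Zfp36, whose product binds AU-rich elements and shortens the life of cytokine mRNAs, read 35.8, 44.0 and 36.4 in null, 54.5, 34.4 and 40.6 in het, and 85.7, 92.6 and 101 in wt cells. The wt arrays were all above the other 6, among which null and het overlapped. Zfp36 fell by 1.05 in null against wt (SE 0.16, adjusted p = 0.000501) and by 0.94 in het against wt (adjusted p = 0.00497). Null against het gave -0.11 (95% interval -0.44 to 0.22, adjusted p = 0.716).

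**Figure D2:**
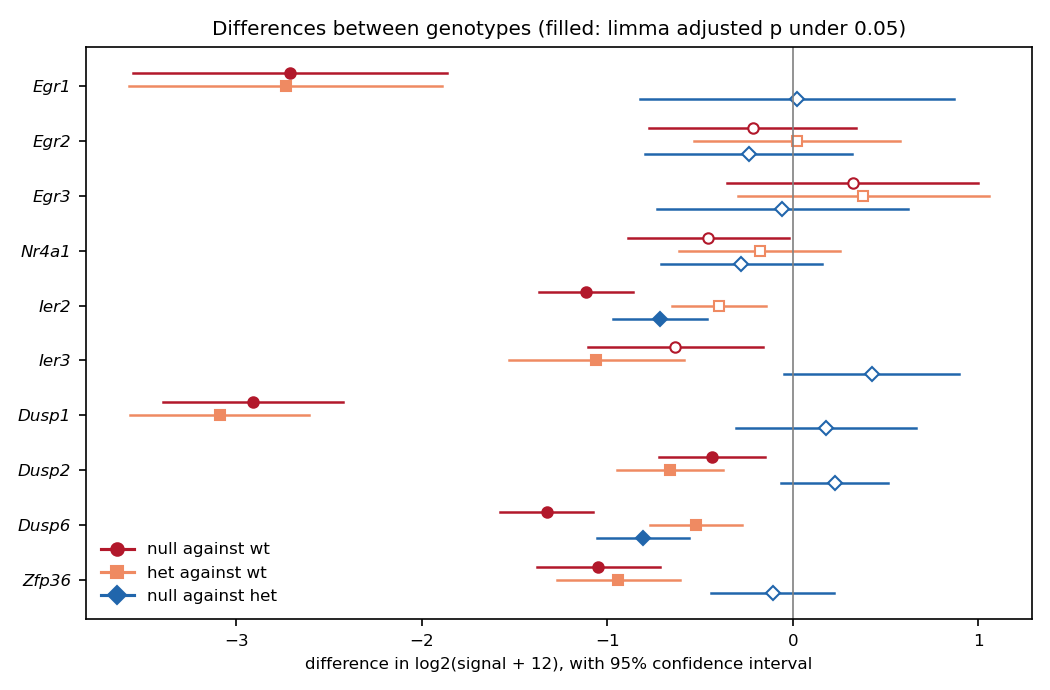
Differences in log2(signal + 12) between genotypes for the 10 early genes, with 95% confidence intervals of the limma fit. Filled symbols have an adjusted p under 0.05. Egr1, Dusp1 and Zfp36 have similar differences in null and het against wt and null-against-het intervals that include 0, whereas the null-against-het intervals of Ier2 and Dusp6 lie below 0.

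The members thus differed in how the het arrays were placed. In Egr1, Dusp1 and Zfp36 the het arrays were as low as the null arrays, and intervals of null minus het reached from -0.82 to 0.87, -0.31 to 0.66 and -0.44 to 0.22. In Dusp6 and Ier2 null cells were lower than het cells, with intervals of -1.06 to -0.56 and -0.97 to -0.46. The interval of Egr1 is wide enough to include a difference of the size seen in Dusp6.

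Arrays of the same genotype differed in their level of the members. Each array's deviation from the mean of its genotype, averaged over the 10 members, was 0.06, 0.18 and -0.25 for null replicates 1, 2 and 3, 0.19, -0.03 and -0.16 for het replicates, and -0.23, 0.26 and -0.03 for wt replicates. Replicate 3 was thus the lowest null and the lowest het array, and wt replicate 2 the highest wt array. The array medians were 14.4, 14.6 and 12.4 for the null, 16.1, 14.5 and 13.8 for the het and 15.4, 15.3 and 14.5 for the wt replicates. The lowest null and het arrays for the members thus also had the lowest medians of their genotypes, which was not so in wt. The part of this was not tested. As a description over 9 arrays that share 3 genotype means, the deviations of Egr1 correlated with the mean deviation of the other 9 members at r = 0.93, those of Egr2 at 0.82, Ier3 at 0.80, Dusp2 at 0.71, Egr3 at 0.60 and Dusp1 at 0.55. Zfp36, Dusp6 and Ier2 gave only 0.48, 0.35 and 0.23, and Nr4a1 gave -0.31. The highest pair was Egr3 with Ier3, at r = 0.92, although their genotype means ran in different orders.

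**Figure D3:**
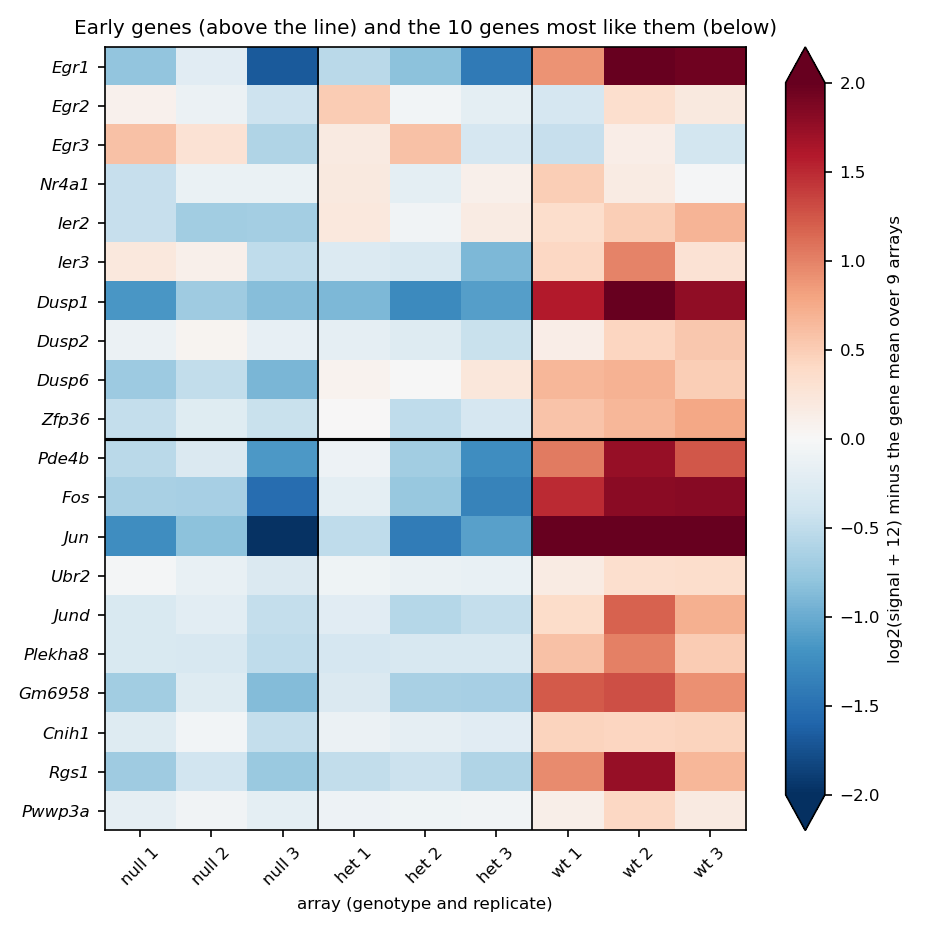
Heat map of log2(signal + 12) minus each gene's mean over the 9 arrays, for the 10 early genes (above the line) and the 10 other genes with the highest correlation to their mean (below). Colours are capped at 2 either way. Most rows are high on the 3 wt arrays, and Egr1, Fos, Jun and Pde4b are lowest on null replicate 3 or het replicate 3.

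Of the genes outside the list, those most like the mean of the 10 members over the 9 arrays were Pde4b, Fos, Jun, Ubr2, Jund, Plekha8, Gm6958, Cnih1, Rgs1 and Pwwp3a. Their Pearson r ran from 0.957 to 0.986 and their Spearman rho from 0.767 to 0.967. For the deviations from genotype means the same genes gave r from 0.642 to 0.946. Pde4b, a phosphodiesterase that degrades cyclic AMP, came first: it read 56.6, 69.3 and 32.9 in null, 81.1, 49.6 and 30.0 in het, and 192, 320 and 225 in wt cells. All 6 null and het arrays of Pde4b lay below the wt arrays, with falls of 2.00 and 2.02 (adjusted p = 0.000267 and 0.000874). These 10 genes were picked over the same 9 arrays by likeness to a mean that is highest in wt. Their separation of wt from null and het therefore follows from that choice and is no independent result. The other 2 tested probe sets of Pde4b gave 0.37 and 0.19 in null against wt (adjusted p = 0.227 and 0.447 in the fit over probe sets), so the probe sets disagree. Without wt replicate 2 the Pde4b differences were -1.80 and -1.82 (adjusted p = 0.00102 and 0.00375), and those of Rgs1, an inhibitor of G protein signalling, were -1.41 in null and -1.31 in het, against -1.73 and -1.62 with it.

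The AP-1 and other immediate early genes, a list of 30 genes of which 23 were tested, had 6 lower and 1 higher in null against wt, with a median of -0.18. Of the same genes 4 were lower and 1 higher in het against wt (median -0.15), and in null against het 1 was lower and 3 higher (median -0.04). The counts without wt replicate 2 were 5 lower and 1 higher in null and 3 lower and 0 higher in het. Jun, a subunit of the AP-1 factor, read 37.1, 54.2 and 17.6 in null, 70.0, 32.3 and 43.0 in het, and 498, 673 and 569 in wt cells. Its partner Fos read 709, 706 and 384 in null, 985, 659 and 437 in het, and 3196, 3953 and 4007 in wt cells. Both were low on all null and het arrays, as Egr1 and Dusp1 were. Jund fell by 1.08 in null and 1.18 in het against wt (adjusted p = 0.000535 and 0.000961), and without wt replicate 2 its differences were -0.87 and -0.97 (adjusted p = 0.00072 and 0.00114). Nfkbia, the NF-kB inhibitor, fell by 0.53 and the antiproliferative gene Btg1 rose by 0.39 in het against wt (adjusted p = 0.0424 and 0.0204). Neither call held without wt replicate 2 (adjusted p = 0.125 and 0.0598), and a dimmer Btg1 probe set gave -1.71 (adjusted p = 0.000322 in the fit over probe sets). In that fit dimmer Nfkbia probe sets gave -0.59 and -0.60 (adjusted p = 0.0108 and 0.0316), and -0.27 and -0.47, not called, in het against wt. The first of them was also called in null against wt (-0.45, adjusted p = 0.0133), and no other Nfkbia probe set was. In null against het Fosl2, Klf2 and Klf6 rose by 0.67, 1.18 and 0.44, and Klf4 fell by 0.79 (adjusted p = 0.0136, 0.00429, 0.0113 and 0.0211). Second probe sets of Fosl2 and Klf4 gave 0.01 and -0.08 (adjusted p = 0.988 and 0.896 in the fit over probe sets), so these calls rest on 1 probe set each.

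Paralogs of the members numbered 16, of which 11 were tested, with 2 lower and 1 higher in null against wt and a median of -0.12. Zfp36l2, an RNA-binding relative of Zfp36, read 1343, 1273 and 1074 in null, 1575, 1605 and 1494 in het, and 1816, 1980 and 1730 in wt cells. Its 3 genotypes formed separate steps. Zfp36l2 fell by 0.58 in null against wt (adjusted p = 0.00061) and by 0.34 in null against het (adjusted p = 0.0182). Nr4a2, a relative of Nr4a1, fell by 0.82 in null against wt (adjusted p = 0.0096). Its means were 109 ± 24.9 in null, 166 ± 39.9 in het and 200 ± 38.4 in wt cells (SD, n = 3 each). Its other probe sets ranged from -0.56 to 0.39, and of these only the one at -0.56 was called (adjusted p = 0.0324 in the fit over probe sets). Dusp5, a nuclear phosphatase of ERK, went the other way: it read 35.1, 56.9 and 33.0 in null, 37.4, 37.2 and 42.0 in het, and 28.1, 15.6 and 4.09 in wt cells. Dusp5 rose by 1.01 in null against wt (adjusted p = 0.0218), and het against wt gave 0.96 (adjusted p = 0.115). Limma called 0 of the 11 in het against wt and 1, Zfp36l2, in null against het. With wt replicate 2 left out there were 2 higher and 2 lower in null against wt and 1 higher in het against wt.

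**Figure D4:**
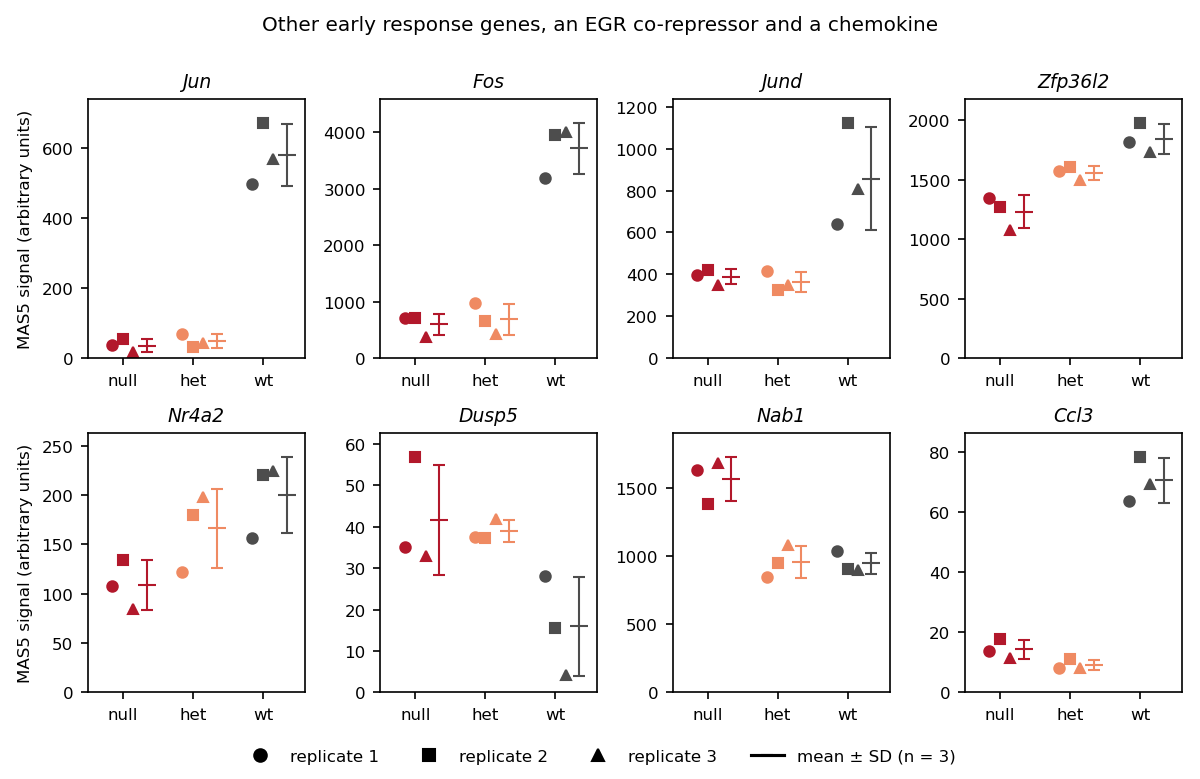
MAS5 signal (linear, arbitrary units, each panel with its own axis from 0) of 8 genes outside the member list on each array, by genotype, with the mean and SD of 3 arrays beside the points. Jun, Fos, Jund and Ccl3 are high on the wt arrays only, Zfp36l2 forms 3 steps, Dusp5 is lowest on the wt arrays and Nab1 is highest on the null arrays.

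Partners and described targets of EGR proteins had 2 of 6 tested genes higher and 0 lower in null against wt (median 0.21). They were Nab1, a co-repressor that binds EGR proteins, and the cell cycle inhibitor Cdkn1a, which rose by 0.71 and 1.67 (adjusted p = 0.000426 and 4.46e-06). Nab1 read 1634, 1381 and 1683 in null, 848, 948 and 1080 in het, and 1038, 907 and 900 in wt cells, so only the null arrays stood apart. Both genes also rose in null against het, by 0.70 and 1.41 (adjusted p = 0.000592 and 3.53e-05). Limma called 0 of the 6 in het against wt, where Nab1 gave 0.01. A dimmer probe set of Nab1 gave 0.17 in null against wt (adjusted p = 0.605).

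Genes that act upstream went both ways. Of 21 tested ERK pathway genes 3 were higher and 2 lower in null against wt (median 0.09), where 15.7% of all genes were called in either direction. In null against het 3 were again higher and 2 lower (median 0.05), against 14.3% of all genes. The kinases Mknk2 and Rps6ka3 and the Ras inactivator Rasa1 rose by 0.53, 0.58 and 0.49 (adjusted p = 0.00102, 0.00309 and 0.00124), and the adaptor Grb2 and the kinase Araf fell by 0.36 and 0.89 (adjusted p = 0.0149 and 0.0245). A second Grb2 probe set gave -0.12 (adjusted p = 0.552 in the fit over probe sets), 4 other Araf probe sets gave -0.33 to -0.01, none called, and the Araf call was lost without wt replicate 2 (adjusted p = 0.0834). For het against wt 1 was higher (Spry2, an inhibitor of receptor signalling, by 0.37, adjusted p = 0.0487) and 0 lower. Of 16 p38 and JNK pathway genes 1 was higher and 1 lower in null against wt (median 0.09). Map3k5 rose by 0.68 (adjusted p = 0.000424) and the JNK gene Mapk8 fell by 1.29 (adjusted p = 1.68e-05). In het against wt 0 were higher and 1 lower, Mapk8, by 0.98 (adjusted p = 0.000617). Probe sets of Mapk8 disagreed: in null against wt 1 other fell by 1.44 and 1 rose by 1.59 (adjusted p = 3.98e-05 and 0.000146 in the fit over probe sets). In het against wt these 2 gave -1.16 and 1.57 (adjusted p = 0.000727 and 0.000465), and the remaining ones were not called. Of 13 serum response factor, ternary complex factor and CREB genes limma called 0 in null against wt and 0 in het against wt (medians 0.13 and 0.08), with Elk4 nearest at 0.29 (adjusted p = 0.0534) in null against wt.

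Of 10 tested AU-rich mRNAs described as targets of the Zfp36 product, other than the members, 1 rose and 2 fell in null against wt (median -0.07). The chemokine gene Ccl3 read 13.8, 17.9 and 11.5 in null, 8.19, 11.1 and 8.04 in het, and 63.9, 78.4 and 69.5 in wt cells. Like Dusp1, Ccl3 was low on every null and het array. It fell by 1.65 in null against wt and fell by 1.97 in het against wt (adjusted p = 3e-05 and 1.84e-05). Ccl4 fell by 0.70 and the kinase gene Pim1 rose by 1.14 in null against wt (adjusted p = 0.0289 and 4.62e-05). A dimmer Pim1 probe set gave 0.15 there (adjusted p = 0.701 in the fit over probe sets). In het against wt Pim1 gave 0.42 (adjusted p = 0.14), and without wt replicate 2 it was called at 0.58 (adjusted p = 0.00917).

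Transcripts of stress handling and of other cell types also differed between the genotypes. Of 15 heat shock genes 4 were lower and 1 higher in null against wt (median 0.03), and limma called 0 in het against wt. The chaperone genes Hspa1b, Hspa1a, Hsph1 and Hspe1 fell and Hspa4 rose in null against wt. Without wt replicate 2 the count was 2 lower and 1 higher in null and 2 lower in het, Hspa1b and Hspa1a being lower in both. Hspa1b read 115, 61.7 and 101 in null, 43.9, 87.8 and 200 in het, and 720, 158 and 623 in wt cells. On wt replicate 2 Hspa1b was thus the lowest of the wt arrays, whereas Egr1, Dusp1 and Ier3 were highest there. Among 10 tested late neutrophil markers Ltf and Ngp fell in null against wt (2.09 and 2.12, adjusted p = 8.01e-05 and 0.00109). Ltf fell by 1.97, Ngp fell by 1.86 and Lcn2 fell by 1.78 in het against wt (adjusted p = 0.000411, 0.0144 and 0.00579). Ltf and Ngp peaked on wt replicate 2, and without it their differences were -1.80 and -1.70 in null and -1.68 and -1.44 in het. The summed signal of 11 such markers was 2490 to 8910 in null, 2819 to 5088 in het and 4061 to 7532 in wt cells, which overlap. This sum rests mostly on S100a8 and S100a9, which read 4305 and 3772 on null replicate 1 and 1910 and 1378 on wt replicate 1. For Ltf, Ngp, Cd177 and Mmp8 all null and het arrays lay below wt (19% of all genes in null and 9.78% in het). Null arrays overlapped wt for Camp, Cxcr2, Lcn2, S100a8 and S100a9 and lay above it for Itgam. The part of these transcripts in the early gene differences was not tested, and in sorted samples fewer cells of a type and less RNA per cell cannot be told apart.

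Among 8 tested basophil, mast cell and eosinophil markers 3 rose and 1, Fcer1a, fell in null against wt (median 0.33). Epx rose by 0.94 (adjusted p = 0.00323). Prg2 and Prg3 rose by 0.63 and 0.555 (adjusted p = 0.0363 and 0.049 in the fit over probe sets). In null against het 2 were higher and 0 lower (median 0.50), and in het against wt only Fcer1a was called. Fcer1a fell by 2.25 in null and by 3.11 in het against wt (adjusted p = 0.000774 and 0.000198). Fcer1a read 28.6, 42.6 and 30.6 in null, 16.9, 8.26 and 15.1 in het, and 106, 453 and 172 in wt cells. Leaving out wt replicate 2, its wt mean was 139, against 244 with it, and its differences were -1.70 in null and -2.55 in het (adjusted p = 0.000323 and 2.73e-05).

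Lymphoid markers had 0 of 8 higher and 3 lower in null against wt (median -0.39). The summed signal of 13 lymphoid markers was 1416 to 1671 in null, 2096 to 2225 in het and 2414 to 2648 in wt cells. These sums formed 3 separate steps, in the same order as Dusp6 and Ier2. They rest mostly on Ighm and Nkg7, the latter averaging 859, 936 and 1129 in null, het and wt cells. In het against wt 0 of 8 markers were called (median -0.24). Ighm, the immunoglobulin mu heavy chain gene, averaged 407 ± 45.7 in null, 927 ± 51.0 in het and 1105 ± 121 in wt cells (SD, n = 3 each). Ighm fell by 1.42 in null against wt (adjusted p = 1.02e-06) and by 1.17 in null against het (adjusted p = 1.19e-05). Its next brightest probe set gave -1.46 in null against wt (adjusted p = 0.000112 in the fit over probe sets). Its dimmer ones gave -0.105 to -0.028, none called, so the probe sets disagree. The cytotoxic granule gene Nkg7 and the killer cell receptor gene Klrd1 fell by 0.40 and 0.65 in null against wt (adjusted p = 0.0105 and 0.042), the Klrd1 call being lost without wt replicate 2 (adjusted p = 0.138). The part of these transcripts in the steps of Dusp6 and Ier2 was not tested.

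Monocyte, macrophage and dendritic markers had 3 of 14 higher and 2 lower in null against wt. Their summed signal was 6580 to 8095 in null, 5716 to 6072 in het and 3864 to 5875 in wt cells, so that all null arrays lay above the wt arrays. Cd14, Lyz2 and Ccr2 rose by 1.14, 0.82 and 0.75 and H2-Aa and Cd68 fell by 1.37 and 0.48 (adjusted p = 0.000251, 0.0075, 0.0459, 0.000797 and 0.0247), the Ccr2 call being lost without wt replicate 2 (adjusted p = 0.0738). In the fit over probe sets Ccr2 was not called (adjusted p = 0.0588), and its other probe sets gave -0.25 to 0.78. In het against wt 0 of the 14 were higher and 1 lower, Cd14, by 0.90 (adjusted p = 0.00635). In null against wt GMP markers had 1 of 12 higher, Fcgr3, by 0.37, and 1 lower, Csf3r, by 0.375 (adjusted p = 0.00959 and 0.0182). Csf3r also fell by 0.40 in null against het (adjusted p = 0.0144). Stem cell and stromal markers had 1 of 9 higher in null against wt, and erythroid and megakaryocyte markers 0 of 8 called. Without wt replicate 2 the erythroid and megakaryocyte markers had 2 higher in het against wt. The summed signal of 11 erythroid and megakaryocyte markers was 1178 to 1382 in null, 1215 to 1565 in het and 983 to 2509 in wt cells, the highest being wt replicate 2. The T cell genes Cd3e, Cd3g and Cd4 stayed below 12 on every array. Control probe sets gave a Gapdh 3′ to 5′ signal ratio of 7.11 to 7.72 in null, 6.00 to 6.33 in het and 6.56 to 7.44 in wt cells. The Actb ratio was 7.28 to 8.25 in null, 7.48 to 8.45 in het and 7.2 to 10.1 in wt cells. It was highest on wt replicate 2. The 18S RNA 5′ control averaged 1553 ± 252 in null, 2746 ± 331 in het and 1314 ± 544 in wt cells (SD, n = 3 each). The part of these markers and of RNA quality was not tested.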

How the data were processed

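Labelled RNA of 9 sorted samples had been hybridised to 1 array each. The deposited values are MAS5 signal intensities on a linear scale, made with MAS5 per the submitters' processing notes, and version and settings are not given in the sources used here. The mean after trimming 2% at each end was 100 on every array, so shifts common to most genes are removed. Detection calls and scanner output were not analysed here. Gene names came from the platform annotation, and 34945 probe sets had 1 symbol. The probe set with the highest mean log2 value stood for a gene, and genes were tested from the 40th percentile of probe-set means upward (a signal of 8.49). limma 3.58.1 in R 4.3.3 was fitted to log2(signal + 12) over all 9 arrays and 3 groups with an intensity trend (6 residual and 8.1 prior degrees of freedom), two-sided, with Benjamini-Hochberg adjustment over 12347 genes. A second fit over 27022 probe sets served for further probe sets. Fold changes on this scale understate the change of dim genes. The number of arrays limits the precision, and an exact permutation test of 3 against 3 cannot go below 0.1. The fit was tested on simulated data.

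The members and all gene lists were chosen with earlier results of these data known. Lists hold 255 entries from general knowledge and are described by counts and medians. Genes named outside the members come from the 3 lowest p-values per list (null against wt), from lists with 5 or fewer called genes, from the 10 genes most like the members, and Dicer1; not all of them are named. Other genes named, namely Mpo, Elane, Prtn3, Ctsg, Xist, Eif2s3y, Cd3e, Cd3g and Cd4, were chosen as checks of the arrays. Alternatives changed the pseudocount, filter, normalization, variance prior, arrays in the fit, array weights, treatment of several probe sets and replicate block, and left out each array.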

Additional observations from a re-analysis of the deposited data

How the results depend on the processing

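Each of the 3 counts of early genes called lower was recomputed under 20 alternatives, and 0 early genes were called higher in any of them. In null against wt the count was 5 to 7 throughout (6 reported), and without single arrays 5 to 7. In null against het it was 2 throughout. In het against wt it was 3 with no filter on dim genes and 3 with no intensity trend, where more genes are tested or the variance prior differs, and 3 to 6 without single arrays. Egr1, Dusp1 and Zfp36 in null and het against wt, Ier2 and Dusp6 in null against wt and against het, and Dicer1 in null against wt kept their calls in all 20. Ier3 in null against wt passed with the replicate block (adjusted p = 0.00801) and without het replicate 3 (0.0497). Reversals touched uncalled differences only, and their cause was not tested: Egr2 in het against wt gave -0.037 with array weights and -0.19 to 0.16 without single arrays, Egr1 in null against het gave -0.04 with a pseudocount of 1 and -0.31 to 0.41 without single arrays, and without single arrays Egr3 and Zfp36 in null against het gave -0.30 to 0.29 and -0.225 to 0.035. Over all genes, calls lower ranged from 627 to 1102 in null against wt (999 reported), 46 to 118 in het against wt (86) and 508 to 1014 in null against het (925), and calls higher from 547 to 1025 (938), 36 to 111 (86) and 496 to 957 (845).

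Replicate numbers in the labels are shared by the 3 groups, and same-numbered arrays deviated together weakly (r from -0.03 to 0.14 over 9 pairs). The highest r was that of null and het replicate 3. With deviations from means of 3 arrays, this cannot tell whether same-numbered arrays share a donor or a batch, and no label says so. With the replicate block 7 early genes were lower in null against wt, 6 in het against wt and 2 in null against het. Values without wt replicate 2 for genes outside the members and for the lists were chosen after seeing the data. Dicer1 in het against wt passed with the mean of its probe sets (adjusted p = 0.015). Dim probe sets limit what can be said of Egr2, Egr3 and Nr4a1.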
